A study of Mus musculus with 6 samples.

Results

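The genes described here encode enzymes that break down glycogen, in C2C12 mouse muscle cells with a knockdown of Gaa. They were taken by symbol from the table of read counts: Gaa, the phosphorylase genes Pygm, Pygb and Pygl, and the phosphorylase kinase subunit genes Phka1, Phka2, Phkb, Phkg1 and Phkg2. All 9 symbols were found among the 24421 of the table, and 7 had enough counts to be tested. C2C12 is an established myoblast line that fuses into myotubes when serum is withdrawn. The shGAA cells (n = 3 libraries) carried a lentiviral short hairpin RNA against Gaa, and the shScrambled cells (n = 3 libraries) a hairpin of scrambled sequence. All 6 cultures were selected with puromycin, grown with 10% fetal bovine serum and differentiated in 2% horse serum with 4.5 g/l glucose. The titles of all 6 samples also contain the word Fed, which is not explained. The labels give neither the number of hairpin sequences nor whether libraries of 1 group were separate infections or cultures. All p-values below are therefore set against the spread among 3 libraries, and that spread may be technical only.

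Glycogen is degraded along separate routes. In the cytosol, glycogen phosphorylase removes glucose from the chain ends as glucose 1-phosphate. Mammals have muscle (Pygm), brain (Pygb) and liver (Pygl) forms of this enzyme, named for the tissues in which they were described. Phosphorylase kinase switches phosphorylase on. It is assembled from a catalytic gamma subunit (Phkg1 in muscle, Phkg2 in liver and testis), regulatory alpha (Phka1 in muscle, Phka2 in liver) and beta (Phkb) subunits, and calmodulin as the calcium-sensing delta subunit. In the lysosome, acid alpha-glucosidase (Gaa) splits glycogen to free glucose, including glycogen brought there by autophagy. Its deficiency causes Pompe disease, in which glycogen builds up in muscle lysosomes.

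The clearest changes among these genes were falls of Gaa and Pygm and rises of Pygb and Phka2, and the promoter windows of those genes are shown for reference. Each runs from 250 bases before to 50 bases after the annotated start, from RefSeq on GRCm38.p6, at chr11:119267713-119268012 for Gaa, chr19:6384158-6384457 for Pygm, chr2:150786546-150786845 for Pygb and chrX:160501912-160502211 for Phka2, all on the plus strand. For Phka2 the start used in that table lies downstream of the first annotated base of the gene. Capitals mark CACGTG, the core of the element bound by TFEB and related factors at lysosomal genes, and CAGCTG, a form of E-box bound by MyoD and related muscle factors. Both motifs read the same on either strand, and both are cases of the wider CANNTG.
Gaa: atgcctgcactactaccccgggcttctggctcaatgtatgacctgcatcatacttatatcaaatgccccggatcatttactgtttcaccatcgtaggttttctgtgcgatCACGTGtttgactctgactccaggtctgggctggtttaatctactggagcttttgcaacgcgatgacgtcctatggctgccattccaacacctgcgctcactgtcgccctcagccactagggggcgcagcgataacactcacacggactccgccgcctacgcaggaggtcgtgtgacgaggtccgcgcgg
Pygm: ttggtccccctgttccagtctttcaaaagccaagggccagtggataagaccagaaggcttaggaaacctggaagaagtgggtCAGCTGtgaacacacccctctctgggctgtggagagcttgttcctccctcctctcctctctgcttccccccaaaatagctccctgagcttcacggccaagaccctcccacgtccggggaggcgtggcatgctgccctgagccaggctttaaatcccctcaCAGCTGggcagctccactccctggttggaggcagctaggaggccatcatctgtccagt
Pygb: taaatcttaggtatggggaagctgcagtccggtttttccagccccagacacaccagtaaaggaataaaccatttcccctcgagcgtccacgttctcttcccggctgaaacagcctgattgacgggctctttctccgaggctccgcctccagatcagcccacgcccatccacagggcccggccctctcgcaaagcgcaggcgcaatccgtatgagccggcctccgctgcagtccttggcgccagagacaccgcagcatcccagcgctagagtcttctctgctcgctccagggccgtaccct
Phka2: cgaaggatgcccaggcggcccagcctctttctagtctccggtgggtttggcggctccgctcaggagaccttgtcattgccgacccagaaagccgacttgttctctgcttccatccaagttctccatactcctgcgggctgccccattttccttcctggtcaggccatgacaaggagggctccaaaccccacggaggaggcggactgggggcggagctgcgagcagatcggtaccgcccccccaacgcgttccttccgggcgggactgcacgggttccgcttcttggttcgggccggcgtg
The Gaa window held CACGTG 1 time, beginning 140 bases upstream of the start. Of the 32851 RefSeq windows of the same length, 7.15% held that motif. The longer form TCACGTGA was also searched for and was not in the Gaa window, while 0.974% of all windows held it. The Pygm window held CAGCTG 2 times, beginning 168 and 8 bases upstream. The motif did not follow the direction of change among the members. CAGCTG was also in the window of Phkb, which rose, beginning at base 16 after the start. It was in that of Phka1 too, which did not pass, beginning 38 bases upstream. At least 1 CAGCTG was present in 16.3% of all windows and 2 or more in 1.90%, while 72.3% held some CANNTG. Neither motif was found in the Pygb and Phka2 windows, which says only that these letters are not in those 300 bases. The Pygm window also had few CpG pairs, with 4, against 21 in Gaa, 21 in Pygb, 23 in Phka2 and a median of 7 over all windows. Binding of these factors was not measured in these data.

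The libraries held 9224038 to 10430270 counts in shGAA and 9475245 to 9918142 in shScrambled. Levels are given as CPM, the count of a gene scaled to a common library size, and differences as log2 of shGAA over shScrambled from edgeR's quasi-likelihood test, with p adjusted over the 11801 genes tested. The threshold for a call was an adjusted p of 0.05. The background was high, since 38.2% of all tested genes were called, 18.5% higher and 19.7% lower in shGAA. Higher genes were 48.4% of the calls, and 60.0% when only library size was used for scaling, which moved the median of all genes to 0.05 from 0.01. The library shScrambled 1 stood apart, since its counts differed from those of the other two in its group by a chi-square of 5.50 and 6.08 per degree of freedom, and those of the other within-group pairs by 1.98 to 2.62. Without it, log2 changes were -1.31 for Gaa, -0.97 for Pygm, 0.39 for Pygb, 0.49 for Phka2 and 0.23 for Phkb, all still called.

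Muscle markers were lower in shGAA. Of 20 differentiated muscle markers, such as Acta1, Ckm and Myh3, 18 were tested, 13 fell and the other 5 did not pass. The falls were 72.2% of those tested, while 19.7% of all tested genes fell. Of those 5, Ttn (0.14 ± 0.07) and Myh4 (0.24 ± 0.17) had positive log2 differences, and Myh7, Myh8 and Tnnt3 negative ones. Their summed level was 1096 to 1205 CPM in shGAA and 1621 to 2035 CPM in shScrambled. All 8 proliferation markers fell, with sums of 932 to 1035 CPM in shGAA and 1297 to 1442 CPM in shScrambled. Of 8 myoblast markers, 6 were tested, of which 2 rose and 2 fell, a share called of 66.7% beside 38.2% of all tested genes. Id3 (0.75 ± 0.08) and Myf5 (0.51 ± 0.10) rose, and Sdc4 (-1.03 ± 0.06) and Notch1 (-0.84 ± 0.07) fell. The sums of this list were 501 to 512 CPM in shGAA and 642 to 707 CPM in shScrambled. Sdc4 weighed most in them, with means of 178 CPM in shGAA and 363 CPM in shScrambled. Hepatocyte markers summed to at most 0.102 CPM in shGAA and 0.107 CPM in shScrambled, all from Cps1, with Alb, Apoa1 and Ttr at 0. Adipocyte markers summed to 0.320 to 0.409 CPM in shGAA and 0.107 to 0.537 CPM in shScrambled, nearly all from Fabp4, which had 1 to 5 counts in every library, with Plin1, Lep and Cidec at 0. Leukocyte markers summed to at most 2.25 CPM in shGAA and 3.60 CPM in shScrambled, with Itgam at 0, and endothelial markers to at most 5.23 CPM in shGAA and 4.83 CPM in shScrambled. Both tested endothelial markers were called, in opposite directions, Tek at 1.32 ± 0.29 (adjusted p = 0.00176) and Cdh5 at -1.35 ± 0.46 (adjusted p = 0.0280). The neural list stood at 24.6 to 26.7 CPM in shGAA and 25.3 to 29.6 CPM in shScrambled, nearly all of it Syn1, and the bone and cartilage list at 55.4 to 65.4 CPM in shGAA and 57.9 to 78.9 CPM in shScrambled, nearly all of it Runx2. In bulk RNA, fewer cells of a type and less RNA per cell cannot be told apart.

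Of the 7 tested genes, 3 rose (Pygb, Phka2 and Phkb), 2 fell (Gaa and Pygm) and 2 did not pass (Phka1 and Phkg2). Against the background of 38.2% this is 5 of 7, or 4 of 6 without Gaa, the gene the hairpin was made against. Their median log2 difference was 0.07, and that of all tested genes 0.01. In 5 of the 7 the groups did not overlap in CPM, which was true of 49.6% of all tested genes, and in Phka1 and Phkg2 they overlapped. The summed level of the 8 genes other than Gaa was 295 to 310 CPM in shGAA and 249 to 251 CPM in shScrambled. This sum is not scaled by length, and no test was run on it. Pygb (means of 113 CPM in shGAA and 82.6 CPM in shScrambled) and Phka2 (59.7 and 42.1 CPM) differed most in it.

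**Figure D1:**
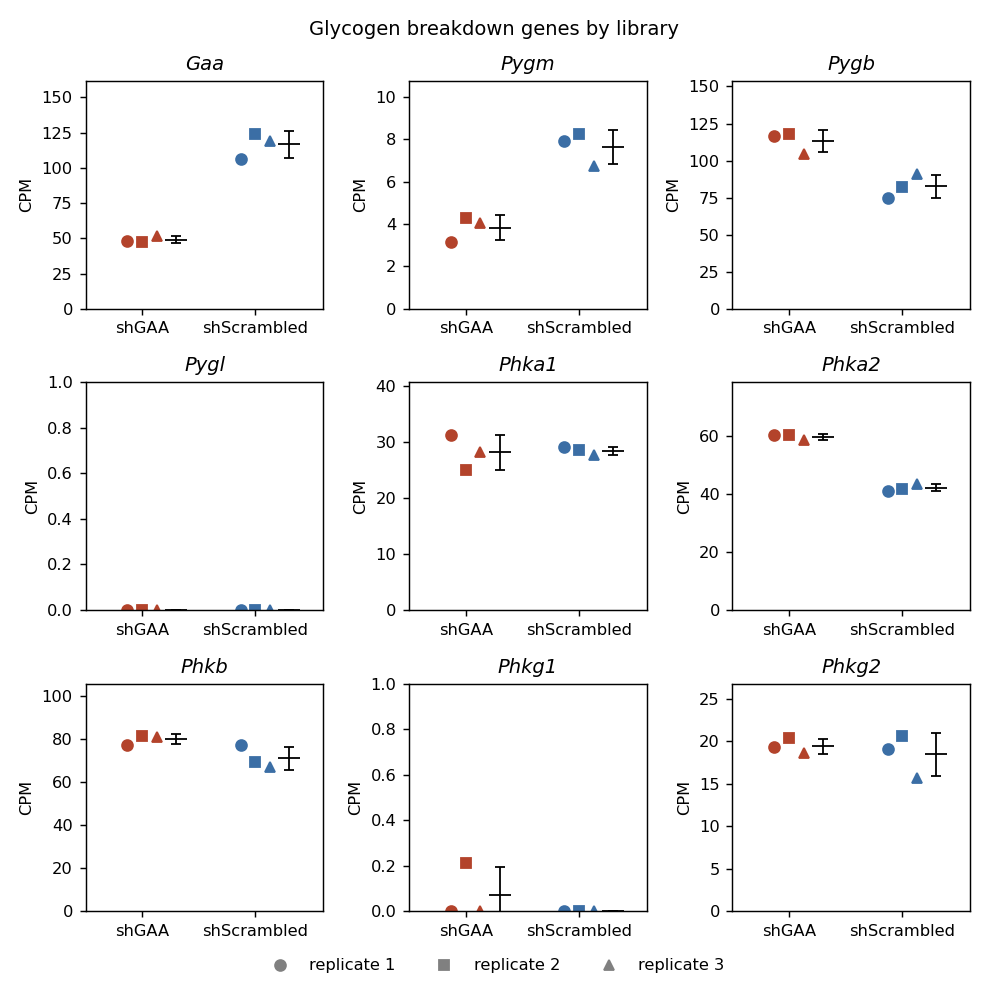
CPM of each gene (vertical axes, each from 0) in the shGAA and shScrambled libraries, with 1 symbol per replicate and the mean ± SD beside the points. Gaa sits at 47.5 to 51.9 CPM in shGAA and 106 to 124 CPM in shScrambled, Pygl has no count, and Phkg1 has 2 counts in 1 library.

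Gaa, the target of the hairpin, fell to 42.1% of the shScrambled level (95% interval 38.2% to 46.5%). It had 47.9, 47.5 and 51.9 CPM in shGAA 1 to 3, against 106, 124 and 119 CPM in shScrambled 1 to 3. Every shGAA library lay below every shScrambled library, by more than the spread within either group. The log2 difference was -1.25 ± 0.07 (SE, n = 3 per group, adjusted p = 1.09e-09). Of the 2330 genes called lower, 112 fell further. Gaa lies on chromosome 11 at 119267963 to 119285458, plus strand, with 4783 bases of exon. No exon of another gene overlaps it, and the share of its 50-base words found in other transcripts was 0%.

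Relatives of Gaa did not pass the test. Of 5 genes of glycoside hydrolase family 31 in the table, 4 were tested and 0 were called by edgeR, beside 38.2% of all tested genes. With only 4 genes, a count of 0 says little about the family. None of the 4 had an unadjusted p under 0.05, and DESeq2 and limma-voom also called 0. Ganab, which encodes the catalytic chain of glucosidase II in the endoplasmic reticulum, averaged 230 ± 9.51 CPM in shGAA and 230 ± 6.50 CPM in shScrambled (SD, n = 3 each). Its log2 difference was 0.00 ± 0.05. Ganc, which encodes a neutral alpha-glucosidase, was at 0.14 ± 0.12. The maltase-glucoamylase gene Mgam was at 0.13 ± 0.07 and was called only when shScrambled 1 was left out.

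Most genes of the route that brings Gaa to lysosomes did not pass the test. Lysosomal enzymes such as acid alpha-glucosidase are tagged with mannose 6-phosphate and carried by receptors from the Golgi. Of 9 tested genes of this route 3 rose and the other 6 did not pass, with a median log2 difference of 0.10. The share called, 33.3%, is below the 38.2% of all tested genes that were called in either direction. All calls of this route were rises, however, and 18.5% of all tested genes rose. Igf2r, the large mannose 6-phosphate receptor, averaged 232 ± 8.24 CPM in shGAA and 164 ± 4.69 CPM in shScrambled, a log2 difference of 0.50 ± 0.05 (adjusted p = 7.69e-07). The Golgi adaptor gene Gga2, whose product sorts these receptors into vesicles, rose by 0.34 ± 0.06 (adjusted p = 0.000124). Gga1, of the same family, rose by 0.19 ± 0.06 (adjusted p = 0.0245), a call lost without shGAA 2 (adjusted p = 0.171). The small receptor gene M6pr was at 0.09 ± 0.05 and the tagging enzyme gene Gnptab at 0.10 ± 0.08, neither passing. Without shScrambled 1, 5 genes of this route were higher in place of 3.

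Glycophagy and lysosome genes went in both directions, with 1 rise, 2 falls and 4 genes that did not pass among 7, a share called of 42.9% beside 38.2% of all tested genes. Stbd1, whose product binds glycogen and is proposed to hand it to autophagosomes, averaged 43.6 ± 1.03 CPM in shGAA and 53.1 ± 1.32 CPM in shScrambled, a log2 difference of -0.28 ± 0.07 (adjusted p = 0.00263). Gabarapl1, which encodes the autophagosome protein it binds, was at 0.05 ± 0.06 (adjusted p = 0.520). The lysosomal membrane gene Lamp1 fell by 0.40 ± 0.05 and Lamp2, which is needed for autophagosome clearance in muscle, rose by 0.20 ± 0.04. Tfeb, Tfe3 and Mitf, which encode factors that bind the CACGTG core, were at -0.04 ± 0.13, -0.17 ± 0.07 and -0.16 ± 0.14 and did not pass.

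The phosphorylase genes moved apart. The muscle form Pygm had 31, 40 and 43 counts in shGAA 1 to 3, against 77, 77 and 63 in shScrambled 1 to 3, or 3.17, 4.27 and 4.04 CPM against 7.91, 8.27 and 6.72 CPM. All shGAA libraries were below all shScrambled libraries. The log2 difference was -0.99 ± 0.18 (SE, n = 3 per group, adjusted p = 0.000345), which left 50.2% of the shScrambled level (95% interval 38.5% to 65.4%). On the log2 scale this interval, -1.38 to -0.61, is the widest of the 5 called genes, and Pygm had the fewest counts of them. Pygm (chromosome 19, 6384408 to 6398464, plus strand) shares 0.405% of its 50-base words with Pygb, the only gene with which it shares any.

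Pygm and the summed differentiated muscle markers were both lower in the shGAA libraries. So were the sums of the proliferation and myoblast markers, and the groups did not overlap in 49.6% of all tested genes. The differentiated muscle list had a median log2 difference of -0.64, and its 18 tested genes ranged from -1.24 for Myh3 to 0.24 for Myh4. Among the shScrambled libraries the order differed, since shScrambled 1 had the highest marker sum and not the highest Pygm. The part of the marker difference in the Pygm result was not tested.

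**Figure D2:**
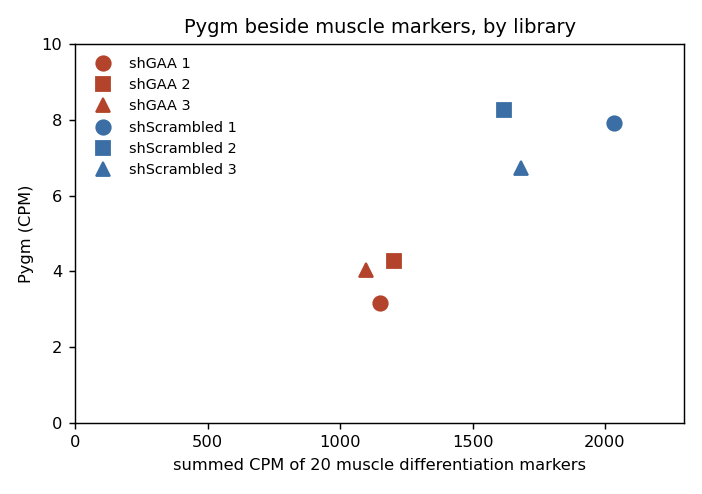
Pygm level (CPM, vertical axis) against the summed CPM of 20 differentiated muscle markers (horizontal axis), 1 point per library. The shGAA libraries lie at 1096 to 1205 CPM of markers and at most 4.27 CPM of Pygm, and the shScrambled libraries at 1621 to 2035 CPM of markers and at least 6.72 CPM of Pygm.

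Pygb, the brain form, rose. It had 117, 118 and 105 CPM in shGAA 1 to 3, against 75.0, 82.2 and 90.6 CPM in shScrambled 1 to 3. The groups did not overlap, although shGAA 3 was the lowest of its group and shScrambled 3 the highest of its own. The log2 difference was 0.46 ± 0.07 (adjusted p = 8.89e-05), or 137% of the shScrambled level (95% interval 124% to 152%). Pygb lies on chromosome 2 at 150786796 to 150831748, plus strand, and shares 0.273% of its 50-base words with Pygm. The liver form Pygl (chromosome 12, 70190815 to 70227683, minus strand) had 0 counts in all 6 libraries. With 3 counts as the limit that a count of 0 allows, this permits up to 0.101 CPM over the shGAA libraries and 0.106 CPM over the shScrambled libraries. Such limits cover counting error only.

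Per length of exon, Pygb carried most phosphorylase RNA in every library. Its share of the summed CPM per kb of the phosphorylase genes was 96.1%, 94.9% and 94.5% in shGAA 1 to 3, against 86.4%, 86.9% and 90.0% in shScrambled 1 to 3. Pygm made up the rest, at 4.82% ± 0.822 in shGAA and 12.2% ± 1.96 in shScrambled (SD, n = 3 each). The summed level was 24.7 ± 1.52 CPM per kb in shGAA and 19.5 ± 1.44 CPM per kb in shScrambled (SD, n = 3 each), and no test was run on this sum. The ratio of Pygb to Pygm counts within a library does not depend on how libraries are scaled. It was 36.9, 27.7 and 25.9 in shGAA 1 to 3, against 9.48, 9.94 and 13.5 in shScrambled 1 to 3. On the log2 scale with 0.5 added to each count, the ratio averaged 4.88 ± 0.27 in shGAA and 3.43 ± 0.27 in shScrambled, a difference of 1.45. The groups did not overlap, and the two-sided exact permutation p was 0.1, the smallest that 3 against 3 libraries can give, or 0.133 adjusted over 4 ratios.

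**Figure D3:**
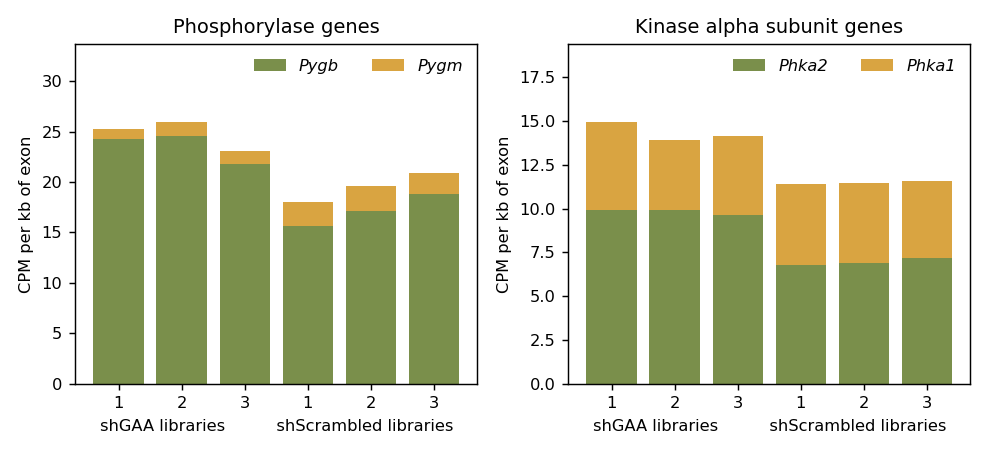
Stacked levels (CPM per kb of exon, from 0) of Pygb and Pygm (left) and of Phka2 and Phka1 (right), 1 bar per library, with the shGAA libraries left of the shScrambled libraries. Pygb fills 94.5% to 96.1% of the shGAA bars and 86.4% to 90.0% of the shScrambled bars, and Phka2 fills 66.5% to 71.4% of the shGAA bars and 59.4% to 61.8% of the shScrambled bars.

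Among the kinase subunits, the liver-type alpha gene rose and the muscle-type alpha gene did not pass. Phka2 had 60.3, 60.4 and 58.5 CPM in shGAA 1 to 3, against 41.2, 41.8 and 43.4 CPM in shScrambled 1 to 3. The spread within each group was small beside the gap between them. The log2 difference was 0.50 ± 0.06 (SE, n = 3 per group, adjusted p = 1.19e-05), or 142% of the shScrambled level (95% interval 129% to 156%). Of the 2182 genes called higher, 674 rose further. Phka2 lies on chromosome X at 160501904 to 160598879, plus strand, and 1.90% of its exonic bases are overlapped on the other strand by the predicted gene Gm15243.

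Phka1 had 31.3, 25.0 and 28.2 CPM in shGAA 1 to 3, against 29.1, 28.6 and 27.6 CPM in shScrambled 1 to 3. The groups overlapped, with shGAA holding both the highest and the lowest library. Its log2 difference was -0.01 ± 0.09 (adjusted p = 0.919), with a 95% interval of 86.5% to 113% of the shScrambled level, and its sign changed with the scaling. Phka1 is also on chromosome X, at 102513975 to 102644301 on the minus strand. Within libraries the count ratio of Phka2 to Phka1 was 1.93, 2.42 and 2.07 in shGAA 1 to 3, against 1.42, 1.46 and 1.57 in shScrambled 1 to 3. The log2 ratio averaged 1.09 ± 0.17 in shGAA and 0.57 ± 0.08 in shScrambled, a difference of 0.52 with no overlap (two-sided exact permutation p = 0.1, the smallest possible, 0.133 adjusted over 4 ratios). The summed alpha subunit level was 14.3 ± 0.522 CPM per kb in shGAA and 11.5 ± 0.0782 CPM per kb in shScrambled (SD, n = 3 each), also with no test.

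The beta subunit gene Phkb had 77.1, 81.3 and 81.0 CPM in shGAA 1 to 3, against 77.0, 69.2 and 66.8 CPM in shScrambled 1 to 3. The lowest shGAA library and the highest shScrambled library were nearly level. Its log2 difference was 0.17 ± 0.06 (adjusted p = 0.0431), or 112% of the shScrambled level (95% interval 103% to 123%), below the median size of 0.37 over all called genes. The call was lost in DESeq2 (adjusted p = 0.113) and without shGAA 1, 2 or 3 (adjusted p = 0.0606, 0.129 and 0.115) or shScrambled 2 or 3 (adjusted p = 0.119 and 0.182). Phkb lies on chromosome 8 at 85840853 to 86064251, plus strand.

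Of the catalytic gamma subunit genes, the liver and testis type carried nearly all counts. Phkg2 had 19.3, 20.4 and 18.6 CPM in shGAA 1 to 3, against 19.1, 20.6 and 15.7 CPM in shScrambled 1 to 3. The groups overlapped, and the log2 difference was 0.07 ± 0.11 (adjusted p = 0.647), with a 95% interval of 89.1% to 124% of the shScrambled level. Without shScrambled 3 its sign turned, to -0.03. Phkg2 (chromosome 7, 127573345 to 127583307, plus strand) is overlapped over 21.9% of its exonic bases by Ccdc189 on the opposite strand. Its counts could therefore include reads of that gene. The muscle type Phkg1 (chromosome 5, 129863431 to 129879134, minus strand) had 2 counts in shGAA 2 and 0 in every other library. This is under the limit of 3 counts, or 0.282 to 0.322 CPM per library, so no difference was detectable at this depth. The remaining ratios fixed for paralogues, Pygb over Pygl and Phkg2 over Phkg1, had a denominator under 3 counts in all 6 libraries and are not read.

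Calm2 and Calm3, which encode calmodulin for the delta subunit as well as for many other calcium-dependent enzymes, fell slightly. Calm3 averaged 251 ± 4.94 CPM in shGAA and 313 ± 11.6 CPM in shScrambled (SD, n = 3 each), a log2 difference of -0.32 ± 0.05 (adjusted p = 4.41e-05). Calm2 was at -0.14 ± 0.05 (adjusted p = 0.0327). The call of Calm2 did not hold when scaled by library size alone (adjusted p = 0.144), nor after leaving out shGAA 1, shGAA 2 or shScrambled 2 (adjusted p = 0.0896, 0.183 and 0.0977). In all, 3 of 10 tested genes of calcium and cyclic AMP input fell and the other 7 did not pass, with a median log2 difference of 0.0048. This share of 30.0% is below the 38.2% of all tested genes that were called in either direction, and 19.7% of all tested genes fell. The other fall was that of Prkar2b, a regulatory subunit of protein kinase A, at -0.20 ± 0.05 (adjusted p = 0.00637). Protein kinase A phosphorylates phosphorylase kinase. Its catalytic subunit gene Prkaca was at 0.02 ± 0.06 (adjusted p = 0.790).

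**Figure D4:**
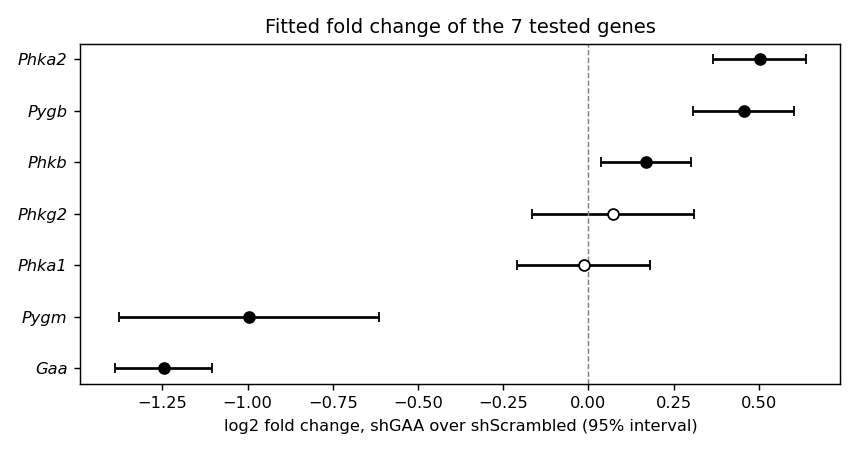
Log2 fold change of shGAA over shScrambled (horizontal axis) for the 7 tested glycogen breakdown genes, with 95% intervals from the edgeR fit. Filled points passed an adjusted p of 0.05, and the open points are Phkg2 and Phka1, whose intervals span 0.

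Per length, the order of the genes differed between the groups. In shGAA, Pygb was highest at 23.6 ± 1.55 CPM per kb. Phkb (10.8 ± 0.314), Gaa (10.3 ± 0.507) and Phka2 (9.84 ± 0.178) followed, and each overlapped its neighbour. Next were Phkg2 (4.86 ± 0.223) and Phka1 (4.50 ± 0.503), which overlapped too, and Pygm at 1.19 ± 0.181 CPM per kb. In shScrambled, Gaa was the highest at 24.4 ± 1.97 CPM per kb, above Pygb at 17.2 ± 1.63, Phkb at 9.57 ± 0.715 and Phka2 at 6.94 ± 0.192, with no overlap between these neighbours. Phkg2 (4.62 ± 0.631) and Phka1 (4.54 ± 0.116) overlapped, and Pygm was at 2.37 ± 0.251 CPM per kb (SD, n = 3 per group throughout). The lengths are of all annotated exons, so a gene that uses few of its exons is understated.

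Of 4 tested genes that make glycogen 1 was called, a share of 25.0% beside 38.2% of all tested genes. This was Ugp2, which makes UDP-glucose. It averaged 232 ± 15.1 CPM in shGAA and 171 ± 16.2 CPM in shScrambled, a log2 difference of 0.44 ± 0.07 (adjusted p = 0.000120). Glycogen synthase Gys1 was at 0.09 ± 0.06 (adjusted p = 0.295) and the branching enzyme Gbe1 at -0.03 ± 0.10 (adjusted p = 0.855), a sign that turned under scaling by library size alone. Among 5 tested genes that handle glucose phosphates, the phosphoglucomutase gene Pgm2 fell, at 99.0 ± 2.59 CPM in shGAA and 132 ± 10.2 CPM in shScrambled, a log2 difference of -0.41 ± 0.06 (adjusted p = 4.93e-05), and the other 4 did not pass. Protein phosphatase 1 reverses the phosphorylation of phosphorylase. Of 8 tested genes for it and its glycogen-targeting partners, the catalytic subunits Ppp1cc (-0.34 ± 0.05, adjusted p = 0.000106) and Ppp1ca (-0.22 ± 0.05, adjusted p = 0.00202) fell and the other 6 did not pass.

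Over all 7 lists of other genes of glycogen handling, 47 were tested, of which 5 rose, 8 fell and 34 did not pass. The share called was 27.7%, below the 38.2% of all tested genes, and the median log2 difference was 0.02. The count of 5 rises was 8 without shScrambled 1 and 8 under scaling by library size alone.

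**Figure D5:**
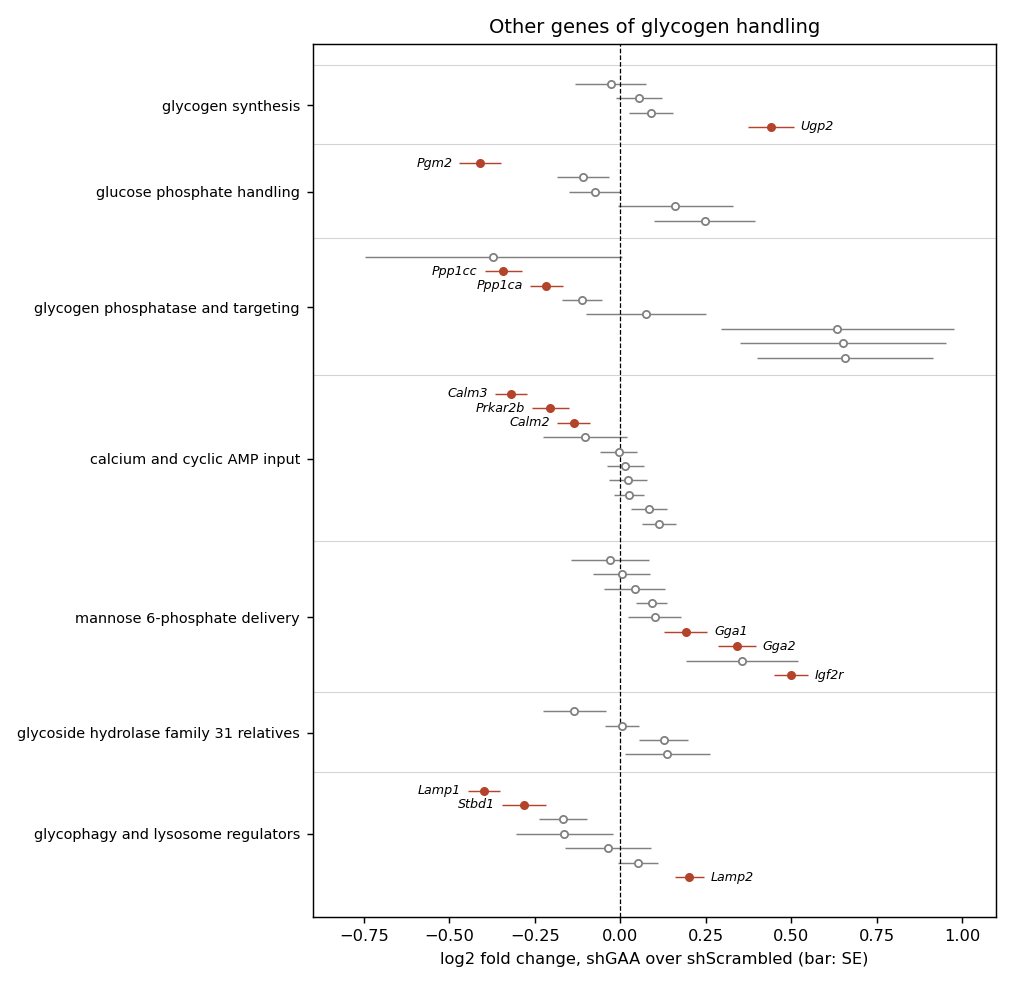
Log2 fold change of shGAA over shScrambled (horizontal axis) for 47 tested genes in 7 lists of glycogen handling (vertical axis), with bars for the SE. Filled and named points passed an adjusted p of 0.05, 5 to the right of 0 and 8 to the left.

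Other genes had closely similar profiles over the 6 libraries. Likeness was measured as the distance between log2 CPM profiles, each centred on its own mean, among 10071 genes with a mean of at least 5 CPM. Nearest to Gaa were Wnt10a, Vwa1 and Hfe2, at distances of 0.13, 0.16 and 0.17, where the median gene was at 1.56. Their log2 differences were -1.21, -1.21 and -1.20, beside -1.25 for Gaa. Nearest to Pygm were Tmod1, Hivep3 and Mfsd2a, at 0.22 to 0.25, with log2 differences of -1.03, -0.86 and -0.99, beside -0.99 for Pygm. Rgmb, Nckipsd and Agtrap were nearest to Pygb, and Enc1, Tmem106c and Fam135a to Phka2. Champ1, Prune and Ankrd50 were nearest to Phkb, and none of those 3 passed the test, with adjusted p of 0.0921 to 0.125. The difference between the groups is part of this distance, so the nearest genes have log2 differences like that of the member by construction.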

How the data were processed

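RNA was measured in 6 libraries made from 1 ug of total RNA each. The authors deposited raw read counts per gene symbol, and the unit follows from the values, which are whole numbers with a different total in each library. Per the submitters' processing notes, the build was mm10 and the tools were FastQC, HISAT2 2.1.0, Subread and edgeR. The gene annotation and the handling of strand and of reads with several matches were not given in the sources used here, so reads of overlapping or near-identical genes may be counted for either or for none. Counts are per gene, so splice forms were not analysed here.

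The members and lists were chosen with earlier results of these data known. Genes were kept by filterByExpr, leaving 11801 tested genes with 99.9% of the counts. Libraries were scaled by TMM (factors 0.979 to 1.02), and CPM uses those scaled sizes. The test was edgeR's quasi-likelihood test (edgeR 4.0.16, R 4.3.3, robust, with no term but group), adjusted by Benjamini-Hochberg across those genes. The SE is the size of the coefficient divided by the square root of F. The code was tested on simulated data. Alternatives were scaling by library size alone, DESeq2 1.42.0, limma-voom (limma 3.58.1), no filter, a non-robust fit, a replicate block and leaving out each library. Levels between genes are CPM per kb of exon in GENCODE M21, which is on the same build, and positions and promoters are from RefSeq on GRCm38.p6.

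Named genes were all 9 members, the called genes of each list (at most the 4 with the smallest adjusted p), Gys1, Gbe1, Stbd1, Gabarapl1, and the 3 genes nearest in profile to each called member. Genes outside that rule that the text names as examples (such as Ganab, Mgam, M6pr, Gnptab, Prkaca, Tfeb and single markers) were chosen after their values were seen, for their known roles. The debranching enzyme and 1 gene of the list of calcium and cyclic AMP input are not reported here.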

Additional observations from a re-analysis of the deposited data

How the results depend on the processing

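Of the 7 tested glycogen breakdown genes, Gaa, Pygm, Pygb and Phka2 kept their direction and their call in all 12 alternatives. Gaa ranged from -1.31 to -1.20, Pygm from -1.08 to -0.88, Pygb from 0.39 to 0.53 and Phka2 from 0.49 to 0.55 on the log2 scale. Phkb kept its direction (0.13 to 0.23) and lost its call in 7 of them, so 2 rather than 3 genes were called higher there. Signs of uncalled genes turned. Under scaling by library size alone Phka1 was at 0.033 and Gbe1 at 0.019. Leaving out 1 library gave -0.094 to 0.064 for Phka1 (0.064 without shGAA 2, 0.0029 without shScrambled 1), -0.033 to 0.16 for Phkg2 (-0.033 without shScrambled 3) and -0.15 to 0.040 for Gbe1 (0.036 without shGAA 1, 0.023 without shGAA 2, 0.040 without shScrambled 3). The difference in the ratio of Phkg2 to Phkg1 was -0.63, and -1.03 to 0.15 with a library left out (0.15 without shGAA 2, which holds the only Phkg1 counts). The 5 rises among other genes of glycogen handling were 8 under library size scaling alone and 5 to 8 with a library left out. Replicate numbers showed no sign of pairing. Same-numbered libraries had deviation correlations of -0.04 to 0.06, and 1 of 3 shGAA libraries correlated best with its own number. With 3 libraries per group this cannot tell whether libraries were paired by design. With the replicate block 2037 genes were higher and 2197 lower, against 2182 and 2330 without it, and Phkb (0.17, adjusted p = 0.0689) and Calm2 (-0.14, adjusted p = 0.0663) lost their calls. Depth limits Pygm, with 31 to 77 counts per library. Pygl and Phkg1 stayed under the limit of 3 counts, so their levels are only bounded from above and no group difference can be read. The causes were not tested.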
